A study of Mus musculus with 12 samples.

Results

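The regions described here are stretches of open chromatin that were listed in 1 sorted population of mouse intestinal epithelial cells, Sox9 Sublow, and in none of the other 3 populations of the study. There were 1696 of them, each holding 1 Sublow peak, among 82365 regions in all. The study sorted epithelium of C57Bl/6 mice with a Sox9EGFP reporter into Sox9 Negative, Sox9 Sublow, Sox9 Low and Sox9 High cells, 12000 cells per population. Omni-ATAC libraries (3 per population, replicates A to C, 12 in all) were made from the sorted cells, and the authors deposited 1 consensus peak list for each population. The labels give no treatment, age or sex. Whether replicates A to C were separate animals or cultures is also not in the labels. All 4 populations share the reporter allele and the strain, and no population from mice without the reporter was analysed here.

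Sox9 is a transcription factor of the intestinal crypt, and the brightness of the reporter separates cells at different steps of renewal. Stem cells at the crypt base give rise to transit-amplifying cells, which divide a few times and then turn into absorptive or secretory cells. In earlier work with this reporter, Sublow cells were enriched for those dividing progenitors, Low cells for stem cells and High cells for enteroendocrine and other secretory cells, while most Negative cells were differentiated. Omni-ATAC marks DNA that Tn5 transposase can reach, which in most cells means promoters, enhancers and insulator sites that are free of nucleosomes. The lists carry no expression or protein values, so the identity of the sorted cells was not checked against marker genes.

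The regions were chosen by the peak positions in the 4 lists. Overlapping or touching peaks (1 bp sufficed) were joined into merged regions, and those with a peak of the Sublow list alone were kept. Their number, width and absence from the other lists follow from the values that chose them and are given as descriptions without a test. Each population is represented by 1 list, so no value below has a replicate error. The 95% intervals are exact binomial (Clopper-Pearson) for shares and exact order-statistic intervals for medians. They cover counting error only and treat regions as independent, which neighbouring regions need not be. A region missing from a list had no consensus peak there, which does not show that the DNA was closed. The lists hold no read counts, so the depth behind a region is unknown.

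Regions open in Sublow alone were rare. They made up 2.06% of all merged regions (interval 1.96 to 2.16%) and 3.28% of the 51751 regions that held a Sublow peak (3.13 to 3.43%). The corresponding share was 9.19% for Low, 12.7% for Negative and 25.5% for High. The other 50055 Sublow regions were shared with at least 1 population. A Low peak lay in 90.3% of all Sublow regions, a Negative peak in 72.8% and a High peak in 66.0%.

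Sublow-only regions were narrow. Their median width was 184.5 bp (182 to 188), with quartiles of 160 and 234 bp, and together they covered 350558 bp. Of the 1696 regions, 710 measured from 150 bp to under 200 bp, 296 were under 150 bp and 204 reached 300 bp. Only 31 (1.83%) reached 500 bp. At the low end, 76 were under 100 bp, 26 were under 50 bp, 8 were under 10 bp and 2 were a single base. How pieces this short arose in the consensus was not tested. Regions of Low alone had a median of 205 bp (202 to 209), those of Negative alone 201 bp (199 to 204) and those of High alone 245 bp (242 to 248). In the plot of widths, each of the single-list sets peaks between 150 and 200 bp, and the Sublow-only set has the smallest part above 300 bp.

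**Figure D1:**
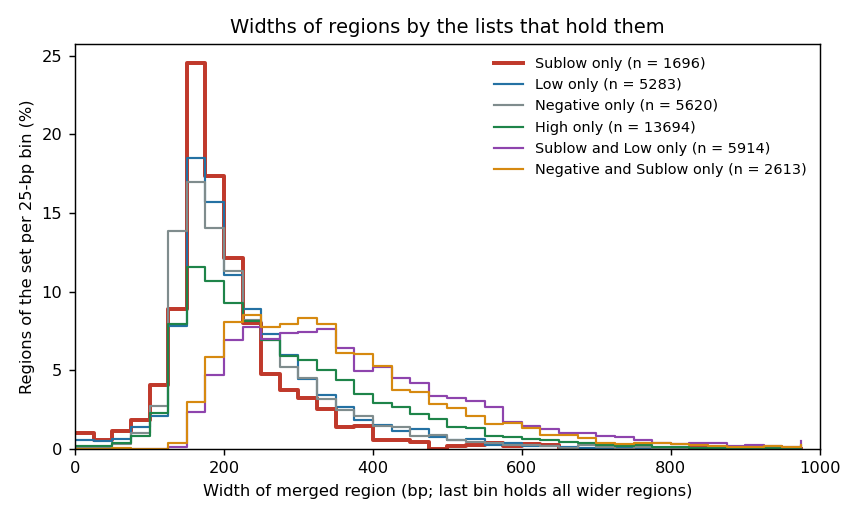
Widths of merged regions (x axis, bp) as the percentage of each set per 25-bp bin (y axis), for regions held by 1 list or by 2 neighbouring lists. The Sublow-only curve (red, median 184.5 bp) is the most concentrated between 150 and 200 bp, while regions shared by Sublow and Low only (purple, median 345 bp) and by Negative and Sublow only (orange, median 325 bp) are wider.

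Because merging widens a region that several lists hold, the Sublow peaks themselves were also measured. They were narrowest where no other population had a peak and widest where all had one. Sublow peaks had a median of 184.5 bp in Sublow-only regions and 196 bp (191 to 207) in regions shared with High alone. The median was 225 bp (221 to 229) in regions shared with Negative alone and 267 bp (262 to 271) in regions shared with Low alone. With 2 partners the medians were 230 bp (Negative and High), 313 bp (Low and High) and 402 bp (Negative and Low). Sublow peaks in regions of all 4 lists had a median of 674 bp (669 to 679).

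The scarcity of own regions in Sublow was present at every peak width. Among peaks under 150 bp, 28.0% of Sublow peaks (25.3 to 30.8%) lay in regions of their own list alone, against 35.1% in Negative, 46.1% in Low and 50.5% in High. Among peaks from 200 bp to under 300 bp the share was 5.64% in Sublow (5.16 to 6.15%), 17.1% in Low, 21.8% in Negative and 40.7% in High. Among peaks of 500 bp or more, 31 of 23911 Sublow peaks were unshared (0.130%, 0.0881 to 0.184%), against 0.548% in Low, 0.922% in Negative and 5.28% in High. Sublow lies between Negative and Low in reporter level, and the part that this middle position has in the shares was not tested.

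**Figure D2:**
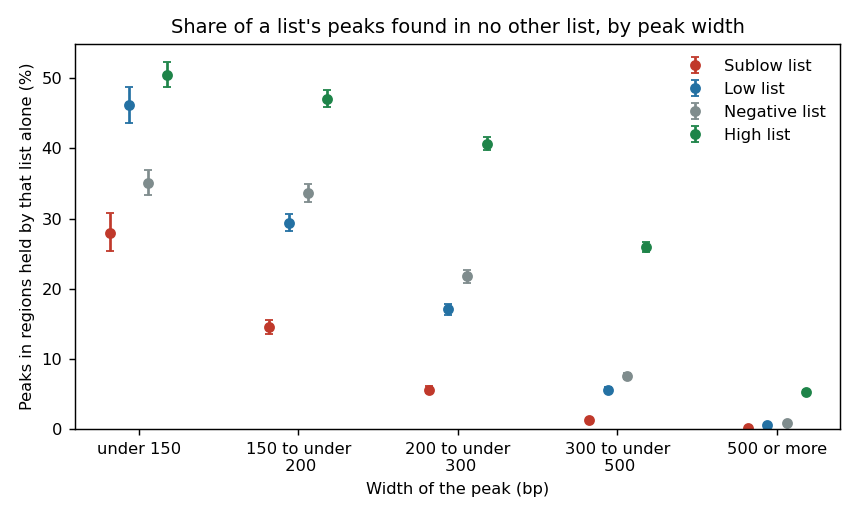
Percentage of the peaks of each list (y axis) that lie in regions held by that list alone, in 5 classes of peak width (x axis, bp); bars are exact 95% binomial intervals. Sublow (red) is the lowest of the 4 lists in every class, from 28.0% of peaks under 150 bp to 0.130% of peaks of 500 bp or more.

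The rule has a hard edge at 1 bp of overlap, and few regions lay near it. Only 14 of the 1696 regions had 50 bp or less between them and a peak of another list, with a median width of 153.5 bp. The closest was 11 bp wide, on chromosome 5 from 34065370 to 34065380, with 4 bp between it and a High peak. In shared regions, 80 Sublow peaks overlapped a peak of another list by no more than 50 bp, and 1 was joined without any overlap. The median width of the 80 was 56 bp. A peak that short can lie mostly or wholly inside another, so the 80 are not all marginal overlaps. Among the 1696, the fourth closest to another list, picked out here for its width after the values were seen, lay on chromosome 7 from 125246222 to 125246805, 584 bp long, with 9 bp between it and a region of Low alone. A stricter definition of sharing, a reciprocal overlap of 50%, gave 3962 Sublow peaks with no partner.

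The median distance from a Sublow-only region to a region with a peak of another list was 2929.5 bp (2654 to 3323). Such a region lay within 10 kb of 80.6% of them (78.6 to 82.5%), and 75.8% of all merged regions had another region with a Low, High or Negative peak that near. This share was 83.6% for Negative and Sublow only and 83.0% for Negative alone. It was 78.4% for Sublow and Low only, 71.6% for Low alone and 65.3% for High alone. Low was the nearest list, at a median of 4213 bp (3804 to 4615), ahead of High at 5865 bp (5421 to 6352) and Negative at 6176 bp (5734 to 6729). The lists differ in length, which by itself moves these distances. Within 1 kb, 21.9% of the Sublow-only regions had another region with a Low peak (19.9 to 23.9%), against a background of 13.4% over all merged regions. For Negative the share was 17.6% (15.8 to 19.5%), against 11.1%, and for High it was 16.6% (14.9 to 18.5%), against 11.3%. Beside regions of Negative alone, the shares for Low, Negative and High were 15.4%, 18.6% and 12.7%. They were 15.2%, 17.4% and 11.6% for Negative and Sublow only, and 17.3%, 11.5% and 12.3% for Sublow and Low only. Regions with peaks of all 3 other populations, in 1 region or in several, were found within 10 kb of 54.1% (51.7 to 56.5%), against 46.8% of all regions, 58.4% for Negative alone and 57.1% for Negative and Sublow only. Measured to the peaks themselves rather than to the edges of merged regions, all 3 were within 10 kb of 911 Sublow-only regions (53.7%). A further 152 had Low and High only, 116 had Low and Negative only, 87 had Low only, 49 High only and 39 Negative only, and 12 had High and Negative without Low.

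The region next to a Sublow-only region was more often one with a Low or Sublow peak than for regions at large, and, in the lists as deposited, less often one with a High peak. The nearest merged region held a Low peak for 76.0% of the Sublow-only regions (73.9 to 78.0%), against a background of 69.6% over all merged regions. It held a Sublow peak for 71.8% (69.5 to 73.9%), against 63.3%. For High the share was 57.8% (55.5 to 60.2%), below the background of 63.5%, and for Negative it was 57.2% (54.8 to 59.6%), against 54.6%. The 4 backgrounds lay outside the intervals, that of Negative only just, and these intervals cover counting error only. With peaks of at least 200 bp, 1721 regions were Sublow-only, of which 690 were among the 1696 and 1031 were not. In that largely different set the shares for Low and Sublow were above their backgrounds (77.0% against 72.0%, and 73.7% against 66.7%). Those for High (60.7%, 58.4 to 63.0%) and Negative (55.6%, 53.2 to 58.0%) then had intervals that included their backgrounds of 62.1% and 53.5%. Values like these were also found next to other sets. The share for Low was 75.6% beside regions of Low alone and 76.7% beside those of Sublow and Low only. The share for Sublow was 69.6% beside regions of Negative and Sublow only and 68.7% beside those of Sublow and Low only. The share for High was 55.0% beside regions of Negative and Sublow only and 57.2% beside those of Negative alone. Another Sublow-only region was the nearest neighbour in 56 cases (3.30%, 2.504 to 4.267%), against 2.22% of all regions. The other single-list sets also lay beside their own kind more often than regions at large did. These shares were 13.1% against 7.33% for Negative, 10.8% against 6.45% for Low and 28.8% against 16.0% for High.

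In 576 cases (34.0%, 31.7 to 36.3%) the nearest neighbour was a region that every population held, close to the 32.5% found over all regions. Regions of Negative, Sublow and Low came next at 13.2%, against 9.54% over all regions, followed by regions of High alone at 10.6%, against 16.0%. Sublow and Low only accounted for 9.67%, against 7.43%, and Sublow, Low and High for 7.72%, against 7.34%. Some of these shares were close to those beside other sets. Regions of Negative, Sublow and Low were nearest for 13.0% of the regions of Negative and Sublow only and 12.3% of Negative alone. Their share was 9.87% for Sublow and Low only, 8.61% for Low alone and 5.96% for High alone. In the same order of sets, regions of High alone were nearest for 8.88%, 9.61%, 11.9%, 14.3% and 28.8%. Regions of Sublow and Low only were nearest for 6.31%, 5.12%, 11.4%, 9.63% and 5.57%. Along the chromosome, 219 of the Sublow-only regions (12.9%) were flanked on both sides by regions of all 4 lists, 707 (41.7%) on 1 side and 770 (45.4%) on neither. Over all regions these shares were 12.3%, 41.7% and 46.0%, values close to those of the Sublow-only regions.

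A part of the Sublow-only regions sat right beside a region open in every population. Distances to the 27294 regions of all 4 lists use the same targets for every set. The sets still differ in median width, from 184.5 bp for Sublow-only regions to 345 bp for Sublow and Low only. The part of width in these distances was not tested. Within 500 bp of such a region lay 117 Sublow-only regions (6.90%, 5.74 to 8.21%). The background over all regions outside the 4-list set was 3.02%. The share was 4.16% for Negative alone (3.66 to 4.72%), 3.71% for Negative and Sublow only (3.02 to 4.51%), 3.67% for Sublow and Low only (3.20 to 4.18%), 3.22% for Low alone (2.76 to 3.73%) and 1.80% for High alone. None of the intervals given here overlapped that of the Sublow-only regions. They cover counting error only and no error between replicates. With peaks of at least 200 bp in every list, the share was 5.29% (4.28 to 6.45%), against 2.49% over all regions and 3.66% for Negative and Sublow only, whose interval (2.92 to 4.52%) then overlapped it. Of the 1721 Sublow-only regions in that setting, 1031 were not among the 1696.

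The order of the sets was the same within 1 kb and had changed within 10 kb. Within 1 kb of a 4-list region lay 11.0% of the Sublow-only regions (9.57 to 12.6%), with a background of 6.31%, and 9.45% of the regions of Negative alone (8.70 to 10.2%), whose interval overlapped. Within 10 kb lay 48.3% (45.9 to 50.8%), with a background of 40%, against 54.1% for Negative alone and 36.4% for Low alone. The median distance was 10647 bp (9626 to 11259) for Sublow-only regions, between 8527.5 bp for Negative alone (8226 to 8935) and 12664.5 bp for Sublow and Low only (12125 to 13242). It was 9145 bp for Negative and Sublow only (8621 to 9814), an interval that overlapped that of the Sublow-only regions. It was 16776 bp for Low alone and 23391.5 bp for High alone. For Negative and Sublow only, the shares within 1 kb (8.46%, 7.42 to 9.59%) and 10 kb (52.5%, 50.5 to 54.4%) also had overlapping intervals. By this measure the Sublow-only regions lay nearer to common open chromatin than the regions of Low or High alone, and farther from it than those of Negative alone.

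**Figure D3:**
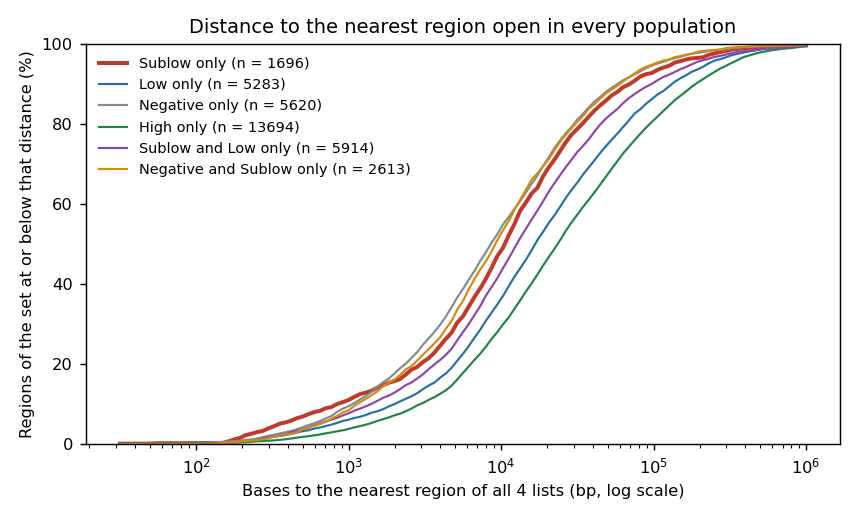
Cumulative percentage of each set of regions (y axis) within a given distance of the nearest region held by all 4 lists (x axis, bp, log scale). The Sublow-only curve (red) is the highest of the 6 at 500 bp (6.90%) and at 1000 bp (11.0%). At its median (10647 bp) it lies between the curves of Negative alone (median 8527.5 bp) and Sublow and Low only (median 12664.5 bp). Negative and Sublow only has a median of 9145 bp, with an interval that overlaps that of the Sublow-only regions.

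Width changed little with this position. The 261 Sublow-only regions under 500 bp from a region of another list had a median width of 175 bp (169 to 181). The median was 187 bp (180 to 192) from 500 bp to under 2 kb, 186 bp (181 to 190) from 2 kb to under 10 kb, and 186 bp (181 to 198) at 10 kb or more. The 37 regions that were 50 kb or more from any region of another list had a median of 190 bp (168 to 211). Isolated regions were thus about as narrow as those beside shared ones.

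Within 50 kb of a Sublow-only region there was a median of 8 other regions (quartiles 5 and 12). The median was 7 for regions at large, 9 for Negative and Sublow only, 8 for Negative alone and for Sublow and Low only, and 6 for both Low alone and High alone. In 35 cases (2.06%) there was no other region within 50 kb, against 3.29% of all regions and 1.57% for Negative alone. Of the regions in these surroundings, 73.7% held a Low peak, 69.9% a Sublow peak, 61.1% a High peak and 59.99% a Negative peak. Around all regions these shares were 71.4%, 66.8%, 63.8% and 59.0%. Regions of Sublow alone made up 2.74% of the surroundings, against 2.19% around all regions, and regions of High alone 11.2%, against 13.6%. Some of these values were close to those of other sets. Regions of High alone made up 11.1% around Negative alone, 10.9% around Negative and Sublow only and 13.3% around Low alone. The share with a Low peak was 74.4% around Sublow and Low only, 73.6% around Low alone and 69.5% around Negative alone.

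The median gap from one Sublow-only region to the next of its kind was 248360 bp, and 94 of 1696 (5.54%) had another within 10 kb. In the more numerous set of Negative alone, 21.0% did, a difference that the larger number of regions alone would also move. There were 46 runs of Sublow-only regions that followed each other without another region between them, and these held 94 regions. Of the runs, 44 had 2 members and 2 had 3.

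The regions were spread over all chromosomes much as other regions were. Among the 19 autosomes, the share of merged regions open in Sublow alone ran from 1.55% on chromosome 19 (41 of 2639) to 2.40% on chromosome 10 (103 of 4293). Of the 21 chromosomes compared, 1 had a share of all regions outside the interval of the Sublow-only regions. This was the X chromosome, with 47 of the 1696 (2.77%, 2.04 to 3.67%) against 1.95% of all regions. The interval is 1 of 21 and was not adjusted for their number. It includes the X shares of Low alone (2.42%), Sublow and Low only (2.28%) and Negative and Sublow only (2.22%). The X shares of High alone and Negative alone were 1.85% and 1.76%. With peaks of at least 200 bp the X chromosome held 1.86% of Sublow-only regions and 1.90% of all regions, so the 2 shares were close in that setting. There, 1031 of the 1721 Sublow-only regions were not among the 1696. The Y chromosome held 2 of the Sublow-only regions among 25 regions.

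At the distal ends of chromosomes the share of Sublow-only regions was somewhat above that of regions at large. In the last 5 Mb before the final region of each chromosome there were 129 (7.61%, 6.39 to 8.97%), against 5.92% of all regions. The share was 6.34% for Sublow and Low only (5.73 to 6.99%) and 5.93% for Negative and Sublow only (5.06 to 6.91%). Both intervals overlapped that of the Sublow-only regions. The share was 5.53% for Low alone and 5.21% for Negative alone (4.65 to 5.83%). With peaks of at least 200 bp the share was 6.45% (5.34 to 7.72%), an interval that includes the 5.96% of all regions. That setting gave 1721 Sublow-only regions, of which 1031 were not among the 1696. In the first 5 Mb after the first region the share was 3.54%, against 3.85% of all regions.

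The 10 widest Sublow-only regions were looked at one by one, because they are the ones for which a peak of such width is least often unshared. They measured 629 to 849 bp. Of the 10, 5 lay on chromosome 7, which held 111 of the 1696 regions (6.54%). None had a peak of another list within 1 kb, and 4 had none within 10 kb. Of all Sublow-only regions, 73.8% had none within 1 kb and 19.5% none within 10 kb. Over all merged regions, 18.1% had another region with a Low, High or Negative peak within 1 kb, and 75.8% within 10 kb. The positions below are mm9.

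The widest region, of 849 bp, lay on chromosome 7 from 148942360 to 148943208. Its nearest neighbour with another list was a region of all 4 populations, 776 bp wide and 13276 bp away, and the nearest Negative, Low and High peaks were 13353, 13633 and 13776 bp away. The third widest, of 753 bp, lay upstream of it on the same chromosome from 148889596 to 148890348, with 52011 bp between them and no region of any other list in that gap. Its nearest Low peak was 13317 bp away, its nearest Negative peak 32425 bp and its nearest High peak 41899 bp. Another Sublow-only region, of 225 bp, lay from 148944208 to 148944432. These 3 formed 1 of the 2 runs with 3 members, spanning 54837 bp in which Sublow was the only population with a listed peak.

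The second widest region, of 786 bp, lay on chromosome 7 from 97470994 to 97471779. Its nearest neighbour, 9542 bp away, was a region of Sublow, Low and High, and the nearest Negative peak was 19931 bp away. The fourth, of 739 bp, lay on chromosome 7 from 28909480 to 28910218. High and Low peaks came at 19364 and 19385 bp, and a Negative peak only at 44371 bp. All 6 regions within 50 kb of it held a Low and a High peak, and 1 held a Negative peak.

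The fifth, of 729 bp, lay on chromosome 10 from 59753019 to 59753747. A region of Sublow and Low only, 288 bp wide, was 7354 bp away, and the nearest High and Negative peaks were at 12093 and 12132 bp. The sixth, of 652 bp, lay on chromosome 6 from 125372146 to 125372797, with a region of Negative and Sublow only at 1419 bp and High and Low peaks at 3114 and 3674 bp. The seventh, of 645 bp, lay on chromosome 12 from 118746348 to 118746992. A region of Negative alone was 2464 bp away, and High and Low peaks were at 4409 and 4474 bp. These 3 had 9, 11 and 10 other regions within 50 kb, and so sat in busier stretches than the first 4, which had 2 to 6.

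The eighth, of 637 bp, lay on chromosome 1 from 148163460 to 148164096, with a 378 bp region of all 4 populations 5050 bp away and 2 regions in all within 50 kb. The ninth, of 635 bp, lay on chromosome 9 from 51080315 to 51080949, with Low and High peaks at 1964 and 1987 bp and 17 other regions within 50 kb. The last, of 629 bp, lay on chromosome 7 from 113496142 to 113496770 and was the most isolated of the 10. The nearest Low peak was 279556 bp away, the nearest Negative and High peaks were 380438 and 380474 bp away, and no other region lay within 50 kb.

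**Figure D4:**
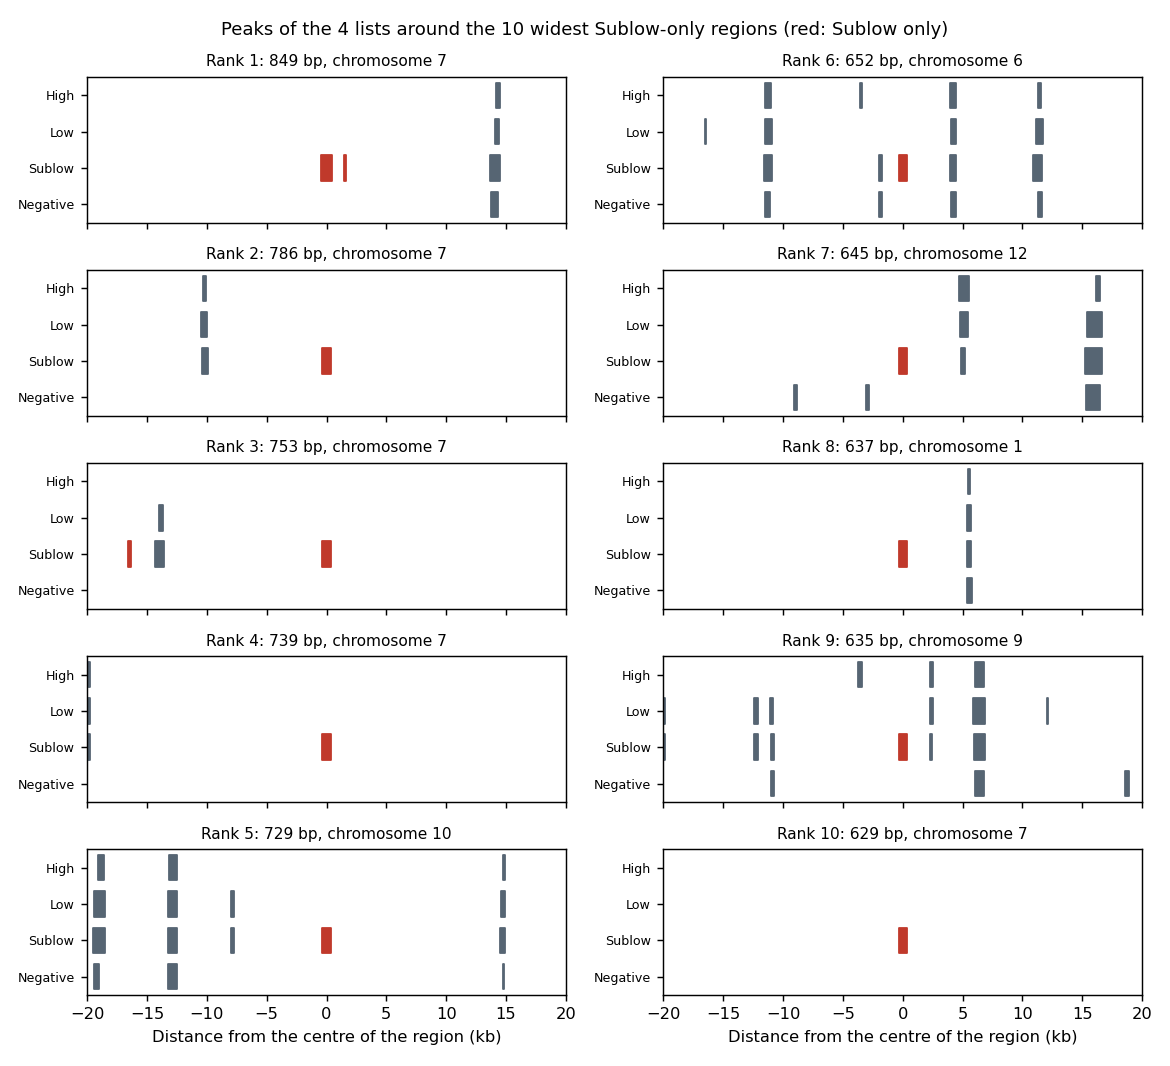
Peaks of the 4 lists (rows) within 20 kb of the centre of each of the 10 widest Sublow-only regions (panels; x axis, distance from the centre in kb); Sublow-only peaks are red and all others grey. Shared peaks stack in several rows, whereas the central peak appears in the Sublow row alone, and in the panel of rank 10 it is the only peak shown.

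The 5 most isolated Sublow-only regions were 180 to 629 bp wide. The farthest from any region of another list was 195 bp wide, on chromosome 3 from 12663584 to 12663778, with 807839 bp to a region of Low and High. The next, of 306 bp, lay on chromosome 17 from 92395889 to 92396194, 605844 bp from a region of High alone. The 629 bp region on chromosome 7 followed in this order. A region of 180 bp on chromosome 3 from 59335045 to 59335224 was 277639 bp from a region of Negative, Sublow and Low. A region of 243 bp on chromosome 7 from 110555156 to 110555398 was 237395 bp from another of that kind. None of these 5 had any other region within 50 kb.

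Besides the run on chromosome 7, the second run of 3 lay on chromosome 10 from 42634567 to 42675120, spanning 40554 bp. Its members were 132, 182 and 54 bp wide, and the first was 3673 bp from a region of another list. The longest runs of 2 by span were 122387 bp on chromosome 4 from 52190131 to 52312517, 101502 bp on chromosome 18 and 50869 bp on chromosome 7 from 147629441 to 147680309. In the last of these, the 2 members were 424 and 155 bp wide and lay 174 and 153 bp from regions of another list, so the run ended directly at shared chromatin on either side.

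On a fixed grid of 100 kb windows, 1374 windows held 1 Sublow-only region, 142 held 2, 10 held 3 and 2 held 4. Both windows with 4 were on chromosome 17. From 24100001 to 24200000 there were 20 regions, of which 16 held a Sublow peak, 12 a Negative peak, 11 a Low peak and 8 a High peak. The 4 Sublow-only regions were 157, 189, 169 and 168 bp wide and lay 2234, 1028, 1102 and 1005 bp from their nearest region of another list. That nearest region was one of Negative, Sublow and Low, one of Sublow and Low, one of all 4 lists and one of Low alone. The window was thus a dense stretch in which narrow Sublow peaks filled gaps between regions of several kinds.

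The window from 28700001 to 28800000 held 10 regions, of which 8 had a Sublow peak, 5 a Negative peak, 4 a Low peak and 4 a High peak. Here the 4 Sublow-only regions were 201, 204, 259 and 161 bp wide. The first was 603 bp from a region of Low alone and the second 1429 bp from a region of Negative and High. The other two lay beyond the last shared region of the window, 14296 and 18825 bp from a region of another list. Of the 10 windows with 3, the first in chromosome order was chromosome 2 from 169900001 to 170000000, with 3 Sublow-only regions among 18. They were 237, 198 and 157 bp wide, and the middle one was 349 bp from a region of Negative, Sublow and High.

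**Figure D5:**
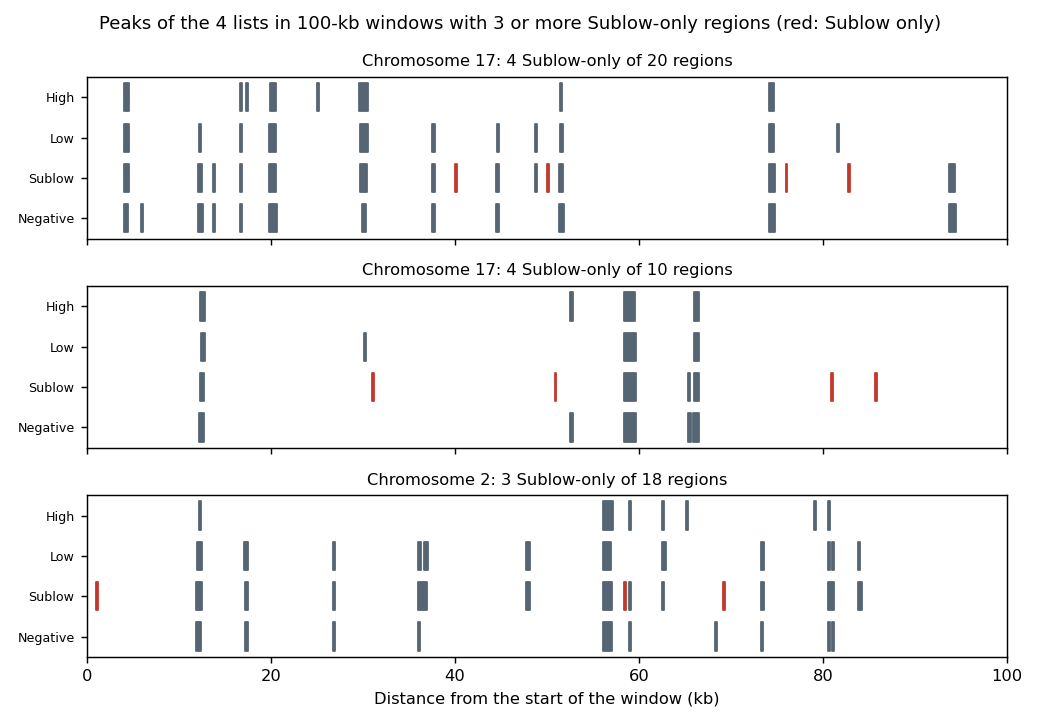
Peaks of the 4 lists (rows) in 3 windows of 100 kb (panels; x axis, distance from the window start in kb), the 2 with 4 Sublow-only regions and the first of the 10 with 3. Sublow-only peaks (red) lie between shared peaks in the top panel, 2 of them lie beyond the last shared region in the middle panel, and in the bottom panel the first lies before any shared peak of the window.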

How the data were processed

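Omni-ATAC libraries from 4 sorted populations (3 each) were represented by 1 consensus list each. Per the submitters' processing notes, MACS2 2.1.2, Bowtie2 2.3.4, Trim Galore 0.4.3, deepTools 2.5.2, Picard 2.10.3 and the mm9 build were used. Their roles, any shift for the Tn5 offset and the rule that joined libraries are not given in the sources used here. Deposited by the authors were positions only (chromosome, start and end in bp, and a peak name), with no score, count or value per library, so depth is unknown. Starts and ends were read as counted from 1 with ends included, because some peaks have equal start and end. Distances are the bases between 2 regions.

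No annotation or genome of build mm9 was used. The gene table at hand is of GRCm38, and positions were not converted, so no region was assigned to a gene and no sequence, GC content or motif is given. The gene and motif lists were therefore not used. Regions were named by rule: the 10 widest, the 5 farthest from regions of other lists, the 5 longest runs and the 3 richest windows of 100 kb. Members, lists and rules were chosen with earlier results of these data known. Merging and distance functions were tested on simulated regions. Software was Python 3.11.15 with scipy 1.17.1, pandas 2.3.3, numpy 2.4.6 and matplotlib 3.10.9. Alternatives were other overlap and merging rules, width limits on peaks, and autosomes only.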

Additional observations from a re-analysis of the deposited data

How the results depend on the processing

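No paired analysis was possible because the deposited lists hold no values for single replicates. For that reason no replicate could be left out either. The alternatives at transcription starts, at genes and for motifs were not run, since no mm9 annotation or genome was used. Of 28 recomputed values, 20 stayed within 1.5-fold (numbers of regions) or inside their interval, and 8 did not. The 20 include all values for autosomes only, a setting that kept 1647 of the 1696 regions and so could hardly move them. A reciprocal overlap of 50% gave 3962 Sublow-only peaks with a median width of 194 bp and a median distance of 0 bp, since most then overlap a peak of another list. Peaks at or above the median width of their list (464 bp in Sublow) gave 811, by construction from fewer peaks, and 36 of these were among the 1696. Merging peaks up to 500 bp apart moved the median distance to 4152.5 bp, as the nearest regions are then absorbed. With peaks of at least 200 bp, the nearest neighbour held a High peak for 60.7%, and the shares on the X chromosome and within 500 bp of a 4-list region were 1.86% and 5.29%. That setting gave 1721 Sublow-only regions, of which 690 were among the 1696 and 1031 were not, because their narrow partners in other lists were dropped. With peaks of at least 150 bp, a limit chosen after seeing the data, 1400 of 1723 were among the 1696. Depth limits every absence: a region without a peak in Low, Negative or High may have been missed there.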
